A study of Mus musculus with 12 samples.

Results

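Splenic B cells of control mice were compared between 2 states, after stimulation for 72 h and resting. The comparison uses 6 of the 12 arrays of the series, 3 of stimulated and 3 of resting cells, chosen by their sample labels alone, and describes every gene the arrays measured. Stimulated cells came from mice of the genotype B1-8hi:Sub1fl/fl and were cultured with IL-2 at 100 U/mL, IL-4 at 5 ng/mL, IL-5 at 1.5 ng/mL, CD40 ligand at 0.2 ng/mL and NP-ficoll at 0.01 ng/mL. Resting cells came from mice of the same genotype and are labelled naive, without differentiation stimuli. Both groups therefore carry floxed Sub1 alleles without Cre and B1-8hi, a heavy chain knock-in that gives antibodies against the hapten NP. The cells do not have the receptor diversity of an ordinary spleen. The labels give no age or sex and do not say whether resting cells were cultured, so the stimuli and the time in culture cannot be told apart. They do not say that the replicates were separate animals either, so p-values reflect only the variation among arrays. How much of it is technical is not known, though Xist (below) sets replicate 1 apart from replicates 2 and 3. That variation was estimated from all 12 arrays, the other 6 being of knockout cells. With the 6 control arrays alone 4537 features were called instead of 6397, and 9 named genes lost their call (Atg7, Ccl4, Cdkn1b, Ebi3, Ifng, Ikzf1, Klf2, Rpl3 and Tirap).

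A T-independent antigen such as NP-ficoll carries many copies of a hapten on a sugar polymer and crosslinks the B cell receptor without help through a peptide. CD40 ligand stands in for helper T cell contact and signals through NF-kB, while IL-2, IL-4 and IL-5 are cytokines that signal through JAK kinases and STAT factors. A B cell that responds enlarges, divides, may switch its antibody class and may become a plasmablast, which loses the B cell transcription program under BLIMP-1 and builds a large endoplasmic reticulum (ER) for antibody secretion.

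RNA was hybridised to one-colour Agilent mouse arrays. A level here is the log2 of a gene's probe intensity relative to the 75th percentile of its array, so 0 is that percentile and each step of 1 is a doubling of intensity. Levels are compared between arrays for the same probe and not between genes. Of the spots on an array, 24.3% to 60.1% were well above background in stimulated cells and 41.8% to 64.1% in resting cells. Stimulated replicate 2 had the fewest. Correlations across features were 0.943 to 0.958 among stimulated arrays, 0.962 to 0.967 among resting arrays and 0.880 to 0.940 between the groups, and the first principal component (50.9% of the variance) separated the groups. Xist, the noncoding RNA of the inactive X chromosome, stood at -3.91, 1.77 and 1.18 in stimulated and -4.42, 1.21 and 1.04 in resting replicates 1, 2 and 3 (a gene chosen after its values were seen). Replicate 1 thus stands apart from replicates 2 and 3 at this gene in both groups alike. The B cell markers were present, all 10 of them above background on at least 1 array of each group, although 9 of the 10 were called lower and none higher, with summed intensities of 493 to 695 times the 75th percentile in stimulated and 1042 to 1220 times in resting cells.

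The stimulated and resting cells differed at 6397 of 22981 features, or 27.8%, by limma with a Benjamini-Hochberg adjusted p under 0.05 over all features. A feature is 1 named gene, read by its brightest probe, or 1 unnamed probe. Of these, 3386 (14.7%) were higher and 3011 (13.1%) lower in stimulated cells. Among the 12295 named genes alone, 2405 (19.6%) were higher and 1764 (14.3%) lower, which is the background for every gene list below. The 3 stimulated arrays lay wholly above or wholly below the 3 resting arrays at 9128 features (39.7%), and 6345 of the called features were among them. A change of at least 2-fold was seen at 2263 higher and 2187 lower called features, and one of at least 16-fold at 82 higher and 43 lower. The share of calls that were higher was 52.9%, with a median change of 0.04 over all features. That split depends on the scaling, with 29.2% of calls higher and a median of -0.35 where the percentile was taken over spots detected on all arrays, and 41.8% and -0.15 with quantile normalization. Every change below is relative to such a scale, and no call shared between the scalings had the opposite sign.

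**Figure D1:**
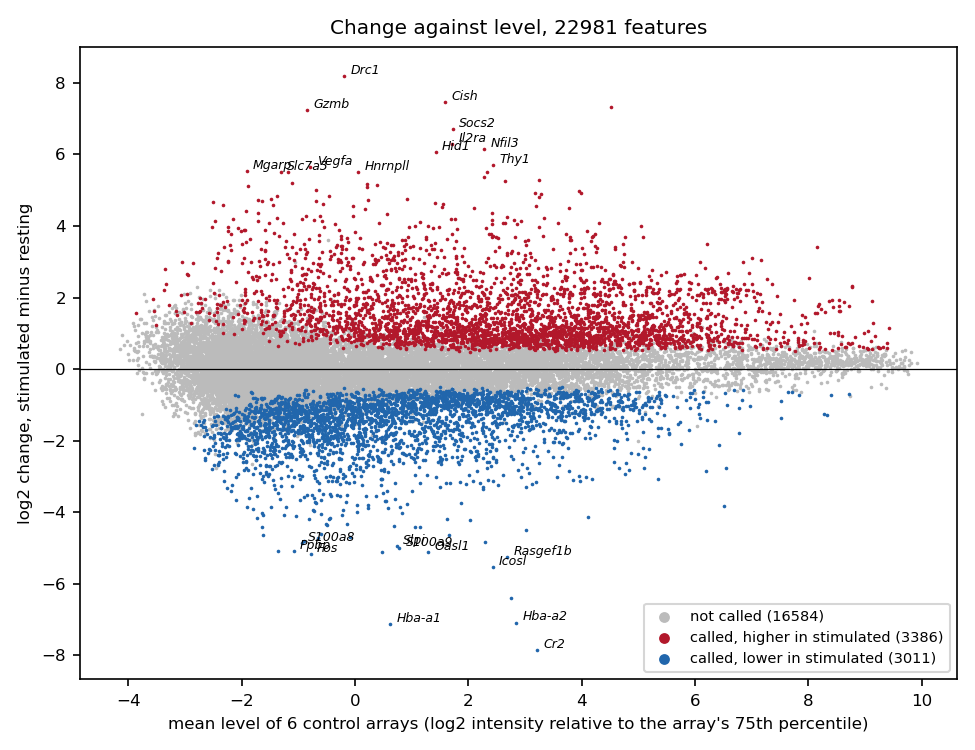
Log2 change (stimulated minus resting, vertical) against mean level of the 6 control arrays (horizontal, log2 intensity relative to the array's 75th percentile) for 22981 features; red points were called higher (3386), blue called lower (3011), grey not called. Labelled genes are among the 12 largest fitted increases and the 12 largest fitted decreases. For those not above background in a group, such as Drc1 (at least 126-fold), the position is a fitted value and only the bound holds. Cish (7.46) was above background on 2 resting arrays and Cr2 (-7.86) on 2 stimulated arrays, so the sizes of these changes are uncertain.

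The largest fitted increases were of genes with varied functions. Drc1, which encodes a subunit of the dynein regulatory complex of motile cilia, had levels of 4.27, 3.84 and 3.64 in stimulated cells, against -4.13, -4.14 and -4.59 in resting cells. It was not well above background on any resting array, and the change was at least 126-fold (adjusted p = 1.15e-07). The other genes with no resting array above background were Gzmb, the protease granzyme B (at least 57.7-fold), Vegfa, the angiogenic growth factor (at least 34.3-fold), Slc7a3, a transporter of cationic amino acids (at least 22.9-fold), and Mgarp, a mitochondrial protein (at least 15.2-fold). Such a bound sets the stimulated mean against the level at which a probe is first well above background. Genes above background on only 1 or 2 arrays of a group have no bound, and their changes are fitted values of uncertain size. Hid1, a gene of dense core vesicle formation, was higher by 6.06 (SE 0.39), and Hnrnpll, a splicing regulator used in plasma cells to make secreted antibody, by 5.51 (SE 0.40). Hnrnpll was above background on only 1 resting array. The remaining 5 of the 12 were Cish, Socs2, Il2ra, Nfil3 and Thy1.

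The largest decreases were of varied genes too. Cr2, which encodes complement receptor 2 of mature B cells, had levels of -0.44, -1.54 and -0.18 in stimulated cells, against 7.57, 7.21 and 6.63 in resting cells, a change of -7.86 (SE 0.38, 232-fold, adjusted p = 2.08e-06). Icosl, the ligand of the T cell costimulator ICOS, changed by -5.53 (SE 0.28). Rasgef1b, an exchange factor for Ras family proteins, changed by -5.24 (SE 0.28). Slpi, a secreted protease inhibitor, changed by -4.95 (SE 0.32). Slpi was above background on only 1 stimulated array and Cr2, Icosl and Rasgef1b on 2, so the sizes of these changes are uncertain. Fos, Oasl1 and 5 genes of erythroid cells, platelets and granulocytes were also among the 12 and are described with their groups below.

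Genes that respond to IL-2 and IL-4 through STAT factors were higher in stimulated cells. Of 14 tested, 12 were higher, 1 was lower and 1 was not called, with a median change of 2.60 against 0.05 over all named genes. Cish, a STAT5-induced inhibitor of cytokine signalling, stood at 5.78, 5.32 and 4.89 in stimulated cells, against -2.33, -1.52 and -2.55 in resting cells (change 7.46, SE 0.33, 176-fold, adjusted p = 1.17e-06). Cish was above background on only 2 resting arrays, so the size of its change is uncertain. Socs2, a second feedback inhibitor, changed by 6.71 (SE 0.35), and Nfil3, a transcription factor that IL-4 induces, by 6.14 (SE 0.25). The 3 arrays of each group did not overlap for any of these genes. Fcer2a, the low-affinity IgE receptor CD23 and a known IL-4 target, went the other way, with levels of 2.28, 1.99 and 2.56 in stimulated and 5.17, 4.81 and 4.84 in resting cells (change -2.67, SE 0.23, adjusted p = 2.34e-05). Ccl22 was on the array but not above background on all 3 arrays of any group, so it was not tested.

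Genes of cytokine receptors, JAK kinases and STAT factors split. Il2ra, the high-affinity chain of the IL-2 receptor, had levels of 5.21, 4.72 and 4.67 in stimulated cells, against -1.71, -1.03 and -1.53 in resting cells (change 6.29, SE 0.25, 78.2-fold). Csf2rb2, which encodes a beta chain of the receptor for IL-3 in mice, changed by 3.77 (SE 0.19). Ifngr1, a chain of the interferon gamma receptor, changed by -2.15 (SE 0.17) and Il10ra, the IL-10 receptor chain, by -1.93 (SE 0.24). Of 21 tested receptor, JAK and STAT genes, 7 were higher and 8 lower, with a median of 0.02 that was -0.36 with the percentile over detected spots. That list therefore has no settled direction as a whole.

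Genes of B cell receptor signalling stood lower after 72 h. None of the 25 tested was higher and 15 were lower, with a median of -0.85. With the replicate number as a block, 1 was higher and 16 were lower. Cd72, an inhibitory coreceptor, had levels of 2.03, 1.86 and 3.02 in stimulated cells, against 5.44, 5.21 and 5.52 in resting cells (change -3.09, SE 0.29, adjusted p = 3.28e-05). Immediate early genes, which a fresh receptor signal induces within minutes to hours, were lower too, with 11 of 17 tested called lower, none higher, and a median of -1.77. Over members detected on all 12 arrays that median was -0.60. Fos, a subunit of AP-1, had levels of -3.82, -1.88 and -4.38 in stimulated and 2.70, 2.10 and 0.59 in resting cells. It was not above background on any stimulated array and was at least 11.6-fold lower. Egr1, a zinc finger factor downstream of the MAP kinases, changed by -3.79 (SE 0.27) and was above background on only 1 stimulated array. Myc, the growth factor-induced transcription factor, did not pass the test (3.01, 2.62 and 2.23 in stimulated and 2.93, 2.51 and 1.80 in resting cells, change 0.21, adjusted p = 0.712), and its sign turned with the scaling (-0.18 with the percentile over detected spots).

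NF-kB and CD40 target genes were lower in 12 of 16 tested and higher in 1, with a median of -1.13. Nfkbia, the inhibitor IkB alpha that NF-kB itself induces, had levels of 3.21, 3.11 and 3.51 in stimulated cells, against 6.13, 6.01 and 5.99 in resting cells (change -2.76, SE 0.18, adjusted p = 6.39e-06). Nfkb2, the precursor subunit p100, changed by -2.84 (SE 0.24). The groups did not overlap for both genes.

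Transcription factors that set B cell fate changed in both directions, and the antibody-secreting cell factors were on the higher side. Of 25 tested, 7 were higher and 14 lower, with a median of -0.85. Prdm1, which encodes BLIMP-1, the repressor that ends the B cell program, had levels of 3.98, 3.54 and 3.67 in stimulated cells, against -1.13, -0.72 and -0.86 in resting cells (change 4.64, SE 0.26, 24.9-fold, adjusted p = 3.89e-06). Zbtb32, a BTB zinc finger repressor of activated B cells, changed by 4.52 (SE 0.29). Xbp1, which drives ER expansion for secretion, was at 8.42, 8.08 and 8.56 in stimulated and 5.37, 5.39 and 5.31 in resting cells (change 3.0, SE 0.22). Irf4, needed for class switching and for plasma cells, was at 6.07, 5.24 and 5.77 in stimulated and 3.62, 3.27 and 3.34 in resting cells (change 2.28, SE 0.22). The stimulated arrays of all 4 lay above every resting array.

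Sub1, which encodes the chromatin protein and coactivator PC4, was called higher in these Cre-free cells by its brightest probe only. That probe had levels of 8.19, 7.79 and 8.15 in stimulated cells, against 6.07, 6.02 and 6.0 in resting cells (change 2.01, SE 0.19, 4.04-fold, adjusted p = 3.42e-05). With both of its probes averaged the change was 0.52 (adjusted p = 0.192), so the probes disagree and a rise of Sub1 is not settled.

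Factors that hold the B cell state were lower. Pax5, the commitment factor of the B lineage, had levels of -1.41, -1.61 and -0.58 in stimulated cells, against 0.68, 0.56 and 0.86 in resting cells (change -1.90, SE 0.34, adjusted p = 0.00179). Bach2, which restrains plasma cell differentiation, was at 1.29, 0.86 and 1.85 in stimulated and 3.38, 3.51 and 3.67 in resting cells (change -2.18, SE 0.25). Bcl6, the germinal centre repressor that opposes BLIMP-1, was at 2.0, 1.87 and 2.93 in stimulated and 4.56, 4.36 and 4.70 in resting cells (change -2.27, SE 0.29). Every stimulated array lay below every resting array for these 3 genes. Ikzf1, which encodes the lymphoid factor IKAROS, changed by -0.85 (SE 0.21, adjusted p = 0.0106). This call was lost without both arrays of replicate 1 (-0.91, adjusted p = 0.0514) or of replicate 2 (-0.74, adjusted p = 0.0550). Zbtb20, a BTB zinc finger factor, changed by -2.26 (SE 0.21).

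**Figure D2:**
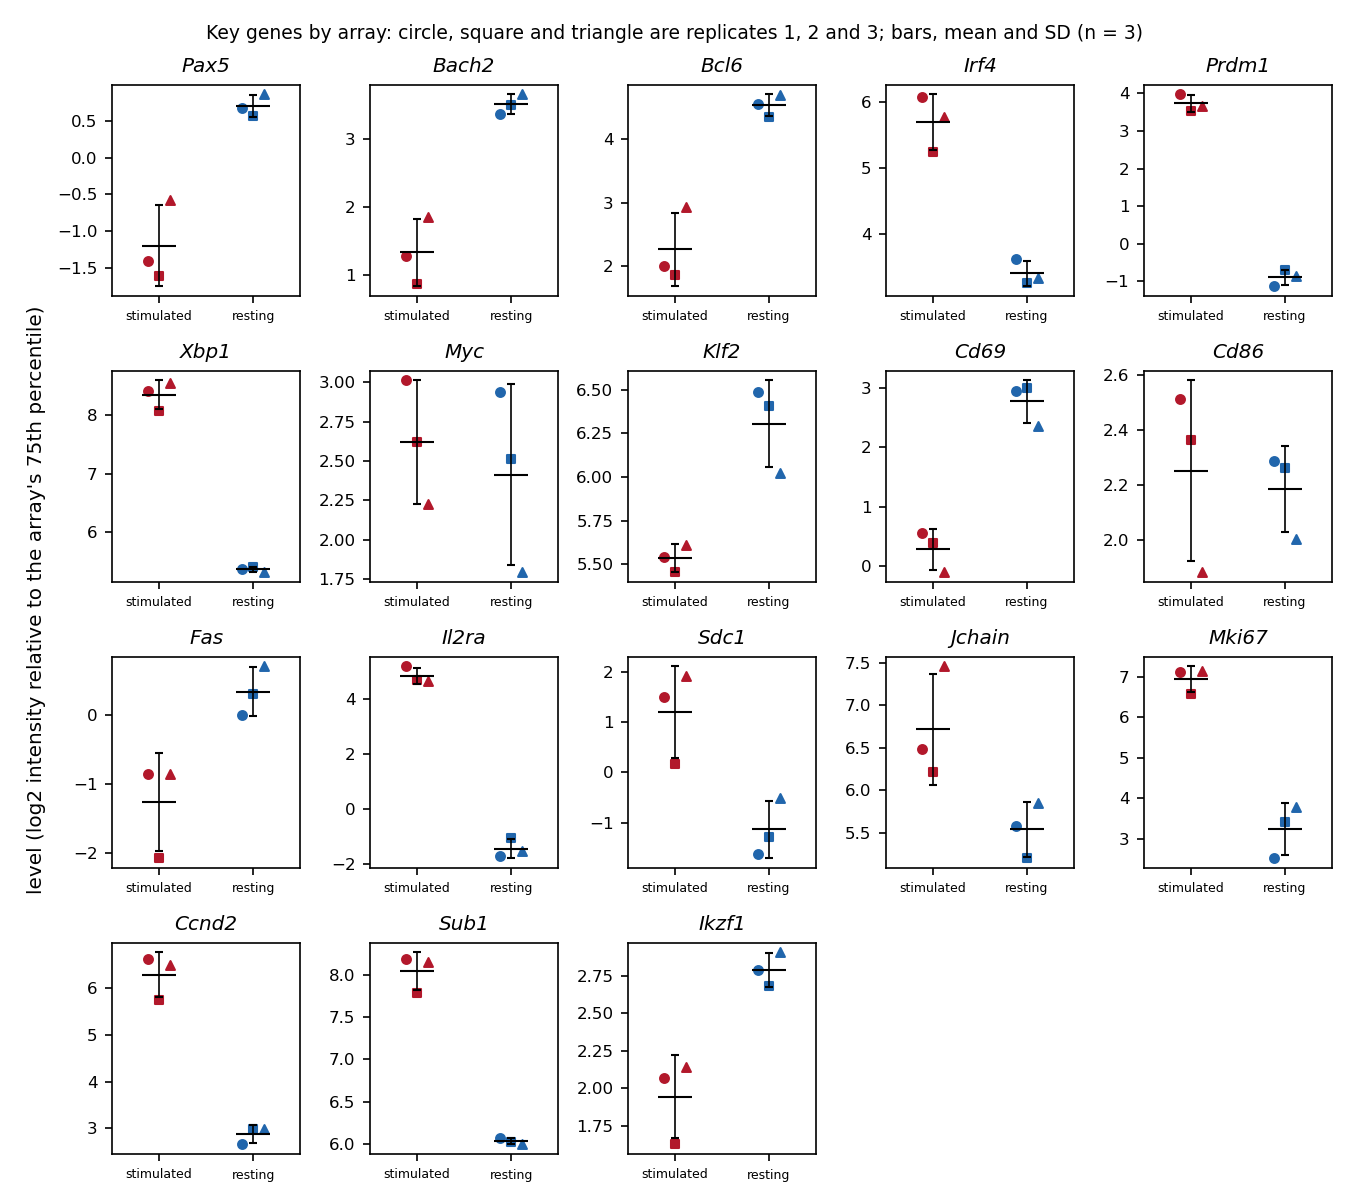
Levels of key genes (log2 intensity relative to the array's 75th percentile) in stimulated (left, red) and resting (right, blue) control cells, with 1 point per array, the marker shape giving the replicate, and bars for mean and SD (n = 3). Prdm1, Xbp1, Irf4, Il2ra and Mki67 stand apart upwards in stimulated cells and Pax5, Bach2, Bcl6 and Cd69 downwards, while Myc and Cd86 overlap between the groups.

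B cell identity genes were lower in 14 of 20 tested and higher in 1, with a median of -0.98. The 1 higher member was Pou2af1, the octamer coactivator OBF-1, which plasma cells also use (change 1.38, SE 0.18). Quiescence genes had 14 of 20 lower, none higher and a median of -0.83, or -1.31 with quantile normalization. Tsc22d3, the glucocorticoid-induced leucine zipper gene, had levels of 2.01, 1.53 and 2.61 in stimulated cells, against 6.44, 6.29 and 5.81 in resting cells (change -4.13, SE 0.30, 17.5-fold). Zfp36l2, an RNA-binding protein that destabilises messages of growth genes, changed by -2.63 (SE 0.26). Klf2, the quiescence and trafficking factor, had a smaller change of -0.77 (SE 0.18, adjusted p = 0.00885). It no longer passed without both arrays of replicate 1 (-0.68, adjusted p = 0.0776) or of replicate 2 (-0.68, adjusted p = 0.0731).

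Receptors that place B cells in lymphoid tissue were mostly lower, with 9 of 15 tested called lower, 1 higher and a median of -1.48. With the replicate number as a block, 2 were higher and 9 lower. Cxcr3, a chemokine receptor, changed by -2.41 (SE 0.36). Selplg, the selectin ligand PSGL-1, was the higher member, at 5.96, 5.39 and 6.04 in stimulated and 3.35, 3.43 and 3.25 in resting cells (change 2.45, SE 0.20). Marginal zone and Notch genes were lower in 9 of 13 tested and higher in 2, with a median of -2.26. That median was -2.55 within slide 1, -1.47 within slide 2 and -1.01 over members detected on all 12 arrays. Slide 2 held only 1 control array per group, so values within it, here and below, have no spread. S1pr3, a sphingosine phosphate receptor of marginal zone B cells, changed by -3.89 (SE 0.48) and was above background on only 2 stimulated arrays. The 2 higher members were Cd9, a tetraspanin of marginal zone and plasma cells (1.93, SE 0.32), and Mfge8, a phosphatidylserine-binding secreted protein (1.09, SE 0.18).

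The classical surface activation markers did not move as a block at 72 h. Of 20 tested, 5 were higher and 10 lower, with a median of -0.85, which was 0.07 over the members detected on all 12 arrays. Slc7a5, the light chain of a large neutral amino acid transporter, was at 3.85, 3.04 and 3.15 in stimulated and -0.93, -0.37 and -0.50 in resting cells (change 3.94, SE 0.27). Cd69, an early activation antigen, was lower, at 0.56, 0.38 and -0.10 in stimulated and 2.96, 3.01 and 2.36 in resting cells (change -2.50, SE 0.28). Slamf1, a homotypic adhesion receptor, changed by -3.72 (SE 0.33), and Fas, the death receptor, by -1.60 (SE 0.32, adjusted p = 0.00366). Slamf1 was above background on only 1 stimulated array. Cd86, a ligand of CD28 that is often used as an activation marker, did not pass the test (2.51, 2.36 and 1.88 in stimulated and 2.29, 2.26 and 2.0 in resting cells, change 0.07, adjusted p = 0.891), and its sign turned with the scaling (-0.32 with the percentile over detected spots).

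The cell cycle gave the most uniform change among these lists by its counts. Of 39 tested mitosis genes, 38 were higher and 1 was lower, with a median of 3.27. Ube2c, the ubiquitin-conjugating enzyme of the anaphase-promoting complex, had levels of 5.80, 5.16 and 5.38 in stimulated cells, against 0.70, 1.44 and 1.52 in resting cells (change 4.22, SE 0.26, 18.7-fold, adjusted p = 4.67e-06). Racgap1, a cytokinesis regulator, changed by 4.15 (SE 0.22). Mki67, the proliferation antigen Ki-67, was at 7.11, 6.57 and 7.13 in stimulated and 2.52, 3.42 and 3.78 in resting cells (change 3.70, SE 0.33). The 1 lower member was Pttg1, securin, which restrains separase before anaphase (change -1.22, SE 0.22, adjusted p = 0.00179). Its call ended with its probes averaged (-0.60, adjusted p = 0.245) or with median scaling (-1.21, adjusted p = 0.0608).

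DNA replication genes were higher in 31 of 33 tested and lower in none, with a median of 2.31. Pole2, a subunit of DNA polymerase epsilon, had levels of 4.29, 3.54 and 3.57 in stimulated cells, against -0.99, -0.60 and -0.58 in resting cells (change 4.52, SE 0.33). Orc1, the largest subunit of the origin recognition complex, was not above background on any resting array and was at least 7.96-fold higher. Genes of G1 and S phase control had 17 of 23 higher and 2 lower, with a median of 1.81. Cdk1, the mitotic kinase, changed by 3.97 (SE 0.35) and E2f7, a repressor E2F factor of S phase, by 3.73 (SE 0.48). E2f7 was above background on only 1 resting array. The D-type cyclins went opposite ways. Ccnd2, the cyclin that B cells use after receptor signals, was at 6.62, 5.75 and 6.51 in stimulated and 2.66, 2.99 and 3.0 in resting cells (change 3.41, SE 0.24). Ccnd1 was at -4.09, -2.43 and -5.29 in stimulated and 0.88, 0.84 and 0.35 in resting cells, not above background on any stimulated array and at least 5.39-fold lower (adjusted p = 0.000189).

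Nucleotide synthesis and chromatin genes were higher beside these. Purine, pyrimidine and folate genes were higher in 18 of 23 and lower in none (median 1.17), with Rrm2, a subunit of ribonucleotide reductase, at 4.09 (SE 0.27) and Shmt2, the mitochondrial serine hydroxymethyltransferase, at 2.60 (SE 0.22). Chromatin and DNA methylation genes were higher in 17 of 24 and lower in 1 (median 1.44). Uhrf1, which guides maintenance methylation to hemimethylated DNA, changed by 2.94 (SE 0.22), and Asf1b, a histone chaperone of replicating cells, by 2.85 (SE 0.23). Kdm6b, a demethylase of histone H3 lysine 27, was the lower member (-1.51, SE 0.22).

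The secretory pathway was higher from entry into the ER to exit from it. Of 27 ER chaperone and unfolded protein response genes tested, 21 were higher and none lower, with a median of 1.71. Creld2, an ER protein of the stress response, had levels of 8.39, 7.56 and 7.92 in stimulated cells, against 4.46, 4.52 and 4.39 in resting cells (change 3.50, SE 0.29, 11.3-fold, adjusted p = 1.89e-05). Manf, a secreted ER stress protein, was at 6.63, 6.05 and 6.10 in stimulated and 3.03, 2.95 and 2.73 in resting cells (change 3.36, SE 0.21). Of 32 genes for ER entry, glycosylation and vesicle coats, 27 were higher and none lower, with a median of 2.03. Sec24d, a cargo adaptor of COPII vesicles, changed by 4.56 (SE 0.42), and Ssr2, a subunit of the translocon-associated protein complex, was at 6.25, 5.31 and 6.12 in stimulated and 2.77, 2.50 and 2.59 in resting cells (change 3.27, SE 0.25).

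Many chaperone promoters carry the ER stress response element, the letters CCAAT, then 9 bases of any kind, then CCACG, which ATF6 together with NF-Y is known to bind. RefSeq promoters of the mouse GRCm38.p6 build, each 250 bases before to 50 after a gene's start, were searched for these letters on both strands, as a description. The element was in 0.119% of all promoters (39 of 32851), and at gene level in 9 of the 24 chaperone genes with a promoter in the table (37.5%) and in none of the 27 ER entry genes. Among the 1970 genes called higher that had a promoter in the table, 9 held it (0.457%), and 7 of these were members of the chaperone list. It was in 1 of 1395 genes called lower and in 15 of 9870 tested named genes (0.152%). The 9 chaperone genes were Hspa5, Calr, Hsp90b1, Canx, Pdia6, Ero1b, Dnajc3, Creld2 and Syvn1, and 7 of them were called higher, Ero1b (-0.27) and Syvn1 (0.59) not. A match is not a site shown to be bound. The promoters of Creld2, Hspa5 and Hsp90b1 are printed because Creld2 had the largest change of the list and the other 2 encode the main ER chaperones BiP and GRP94 (chosen after their values were seen). Capitals mark the fixed letters of the element, read as CGTGG and ATTGG where it lies on the other strand.
Creld2, chr15:88819396-88819695, plus strand: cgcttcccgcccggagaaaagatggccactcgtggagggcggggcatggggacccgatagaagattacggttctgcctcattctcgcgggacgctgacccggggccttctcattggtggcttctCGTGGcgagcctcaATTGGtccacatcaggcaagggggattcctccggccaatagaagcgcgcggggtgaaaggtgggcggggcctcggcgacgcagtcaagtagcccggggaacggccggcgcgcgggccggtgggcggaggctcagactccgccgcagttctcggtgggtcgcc
Hspa5, chr2:34771840-34772139, plus strand: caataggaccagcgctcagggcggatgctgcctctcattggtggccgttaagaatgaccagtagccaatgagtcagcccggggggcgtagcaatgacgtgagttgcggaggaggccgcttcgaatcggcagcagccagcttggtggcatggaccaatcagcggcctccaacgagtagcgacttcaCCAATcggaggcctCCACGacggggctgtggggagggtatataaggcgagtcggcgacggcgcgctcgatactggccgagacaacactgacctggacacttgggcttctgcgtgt
Hsp90b1, chr10:86705395-86705694, minus strand: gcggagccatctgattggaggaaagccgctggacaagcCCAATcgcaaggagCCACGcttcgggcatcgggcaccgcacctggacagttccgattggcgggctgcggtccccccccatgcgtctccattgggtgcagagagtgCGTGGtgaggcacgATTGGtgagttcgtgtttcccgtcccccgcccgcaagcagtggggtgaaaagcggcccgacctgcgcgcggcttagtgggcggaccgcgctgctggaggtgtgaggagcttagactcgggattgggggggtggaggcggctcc
Hspa5 had levels of 8.23, 7.77 and 8.01 in stimulated cells, against 6.44, 6.38 and 6.29 in resting cells (change 1.63, SE 0.20). Hsp90b1, whose promoter holds the element at 2 places, was at 8.83, 8.24 and 8.62 in stimulated and 5.65, 5.42 and 5.28 in resting cells (change 3.11, SE 0.23). The stimulated and resting arrays did not overlap for either gene.

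The plasma cell program was higher in 13 of 19 tested genes and lower in 2, with a median of 1.82. Tnfrsf17, the survival receptor BCMA, had levels of 1.75, 1.20 and 2.95 in stimulated cells, against -2.75, -2.95 and -2.96 in resting cells (change 4.85, SE 0.66, adjusted p = 0.000326). Tnfrsf17 was above background on only 1 resting array, so the size of its change is uncertain. Sdc1, the plasma cell surface proteoglycan CD138, was at 1.50, 0.17 and 1.92 in stimulated and -1.62, -1.28 and -0.51 in resting cells (change 2.33, SE 0.47, adjusted p = 0.00357). Its call ended without both arrays of replicate 1 (1.93, adjusted p = 0.0555). Jchain, which joins IgM and IgA polymers, did not pass the test (6.49, 6.22 and 7.46 in stimulated and 5.58, 5.20 and 5.85 in resting cells, change 1.18, SE 0.44, adjusted p = 0.0708), while with the replicate number as a block it did (adjusted p = 0.0306). The lower members were Cxcr3 and Cd93, a surface receptor of bone marrow plasma cells (-1.51, SE 0.29). None of the 12 immunoglobulin constant region and light chain genes on the list was named on the array, so antibody transcripts themselves are not given by gene.

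**Figure D3:**
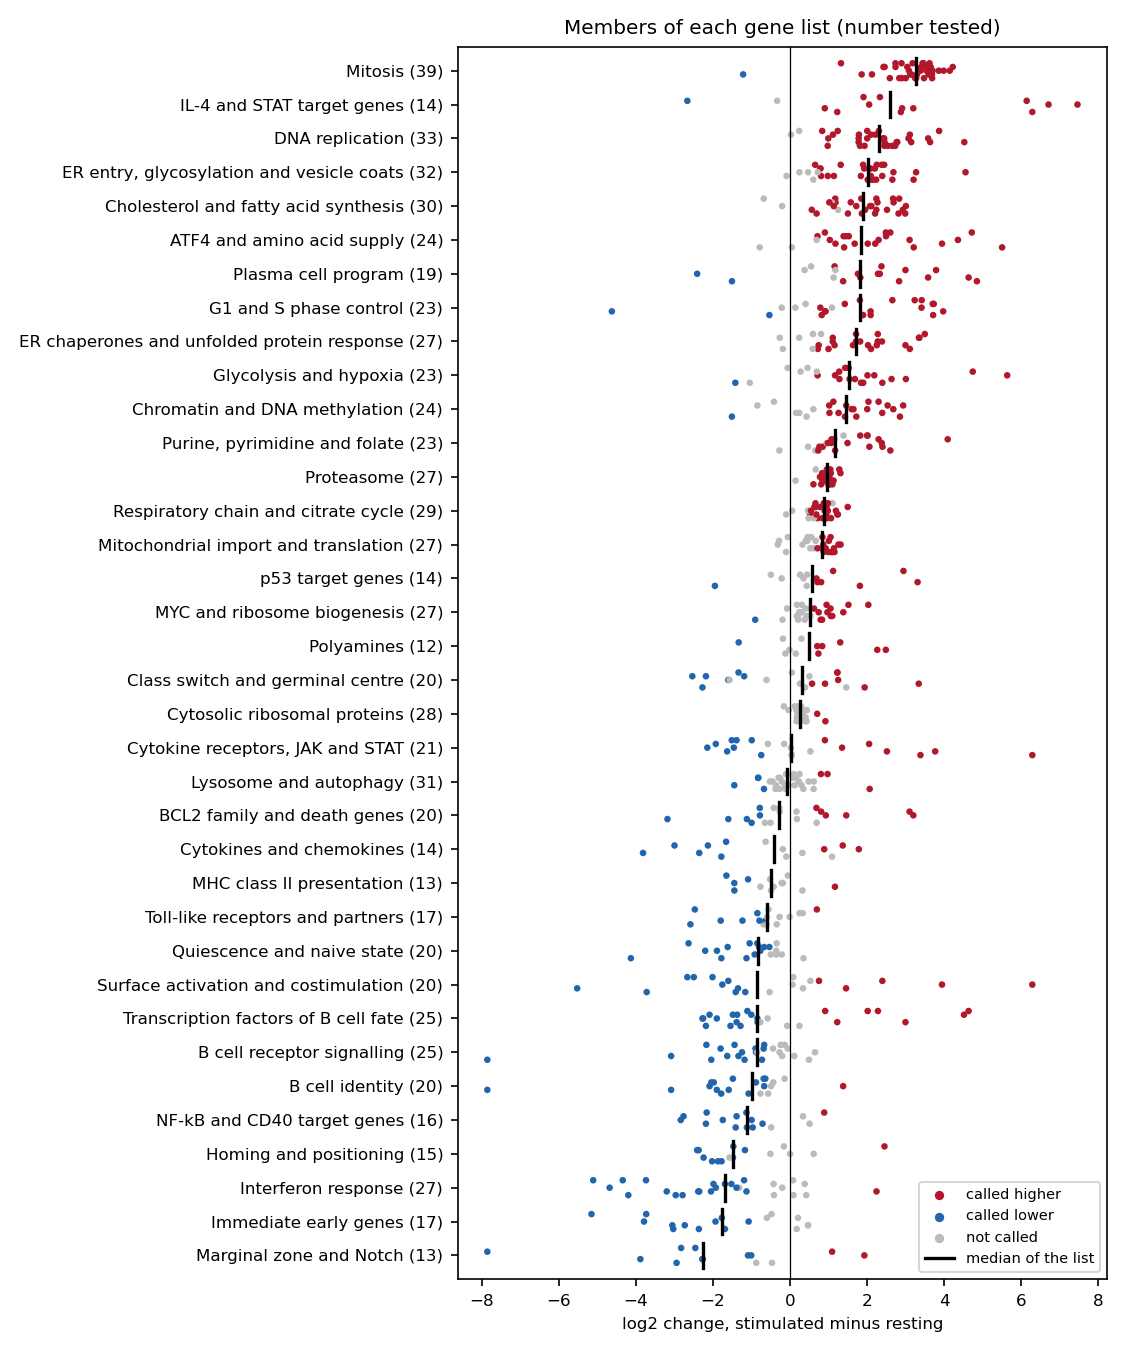
Log2 change (stimulated minus resting, horizontal) of the tested members of each gene list (rows, with the number tested), as red points for genes called higher, blue for genes called lower and grey for genes not called, with a black bar at the list's median; marker lists of other cells are not drawn. Mitosis (median 3.27) stands at the top and marginal zone and Notch genes (-2.26) at the bottom; the medians of class switch, cytosolic ribosomal protein, cytokine receptor, lysosome, cytokine and surface activation lists change sign under some other setting.

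Class switch and germinal centre genes split, with 7 of 20 higher, 6 lower and a median of 0.32 that was -0.06 with the percentile over detected spots. Exo1, an exonuclease of mismatch repair, changed by 3.34 (SE 0.29) and Polq, the polymerase of microhomology end joining, by 1.94 (SE 0.32). Both genes are also active in replicating cells. Gcsam, a germinal centre signalling adaptor, was not above background on any stimulated array and was at least 2.39-fold lower (adjusted p = 0.00155).

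Amino acid supply genes under the stress factor ATF4 were higher in 21 of 24 tested and lower in none, with a median of 1.85. Slc7a3 had levels of 1.70, 1.39 and 1.26 in stimulated cells, against -4.26, -4.42 and -3.49 in resting cells (adjusted p = 6.63e-06). Chac1, which degrades glutathione, was at 2.92, 1.98 and 2.87 in stimulated and -2.48, -1.58 and -2.32 in resting cells (change 4.72, SE 0.30). Polyamine genes were higher in 6 of 12 and lower in 1 (median 0.50, and 0.12 with the percentile over detected spots). The enzymes Srm, spermidine synthase, and Odc1, ornithine decarboxylase, changed by 2.49 (SE 0.28) and 2.26 (SE 0.25), and Sat1, which marks polyamines for export or breakdown, by -1.33 (SE 0.24).

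Cholesterol and fatty acid synthesis genes were higher in 26 of 30 tested and lower in none, with a median of 1.91. Fdps, farnesyl diphosphate synthase, had levels of 6.41, 5.85 and 6.44 in stimulated cells, against 2.99, 3.32 and 3.42 in resting cells (change 2.99, SE 0.27). Fads1, a fatty acid desaturase, changed by 3.01 (SE 0.31). Glycolysis and hypoxia genes were higher in 17 of 23 and lower in 1, with a median of 1.52, which was 1.71 within slide 1 and 0.84 within slide 2. Vegfa was at 2.37, 1.76 and 1.97 in stimulated and -4.24, -3.03 and -3.55 in resting cells (adjusted p = 4.16e-06). Slc16a3, the lactate exporter MCT4, was at 4.02, 4.42 and 1.42 in stimulated and -1.37, -1.73 and -1.27 in resting cells (change 4.74, SE 0.63), with 5.77 within slide 1 and 2.68 within slide 2. Slc2a3, a glucose transporter, was the lower member (-1.42, SE 0.28).

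The protein degradation and energy lists had smaller medians, and their counts of calls depended on the setting. Proteasome subunits were higher in 25 of 27 and lower in none (median 0.97), with Psmb2 at 1.31 (SE 0.25) and Psmc1 at 1.28 (SE 0.19), a core and a cap subunit. Respiratory chain and citrate cycle genes were higher in 23 of 29 and lower in none (median 0.87), with Uqcrq of complex III at 1.50 (SE 0.23) and Cox5a of complex IV at 1.24 (SE 0.18). With quantile normalization the proteasome median was 0.49 and the respiratory median 0.37, with 14 and 8 members called higher. Mitochondrial import and translation genes were higher in 15 of 27 and lower in none (median 0.82, and 0.43 with the percentile over detected spots), with the import receptor Tomm20 at 1.31 (SE 0.21) and the inner membrane channel Timm23 at 1.26 (SE 0.20). With median scaling only 2 proteasome, 4 respiratory and 2 mitochondrial members were called higher, and with the 6 control arrays alone 17, 12 and 10.

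Ribosome-related genes changed less. MYC and ribosome biogenesis genes were higher in 12 of 27 and lower in 1, with a median of 0.53 that was 0.14 with the percentile over detected spots. Gnl3, the nucleolar GTPase nucleostemin, changed by 2.03 (SE 0.30) and Nolc1, a nucleolar phosphoprotein, by 1.52 (SE 0.22). With the probes of a gene averaged Nolc1 was not called (0.68, adjusted p = 0.0637). Pes1, a factor of large subunit assembly, changed by -0.91 (SE 0.22, adjusted p = 0.00976). This call was lost without both arrays of replicate 2 (-0.76, adjusted p = 0.0766) or of replicate 3 (-0.94, adjusted p = 0.0537). With its probes averaged the change of Pes1 was -0.25 (adjusted p = 0.496). Of 28 cytosolic ribosomal proteins, 2 were higher and none lower, with a median of 0.26 that turned to -0.12 with the percentile over detected spots and to -0.06 with quantile normalization. Relative to the median of all features it was 0.22 in both percentile scalings and 0.09 with quantile normalization. The 2 called members were Rps2 (0.92, SE 0.21) and Rpl3 (0.70, SE 0.17), and both calls ended without the arrays of replicate 3 (0.80, adjusted p = 0.0533 for Rps2 and 0.60, adjusted p = 0.105 for Rpl3). The call of Rpl3 also ended without those of replicate 1 (0.72, adjusted p = 0.0589) and with quantile normalization (0.37, adjusted p = 0.225).

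**Figure D4:**
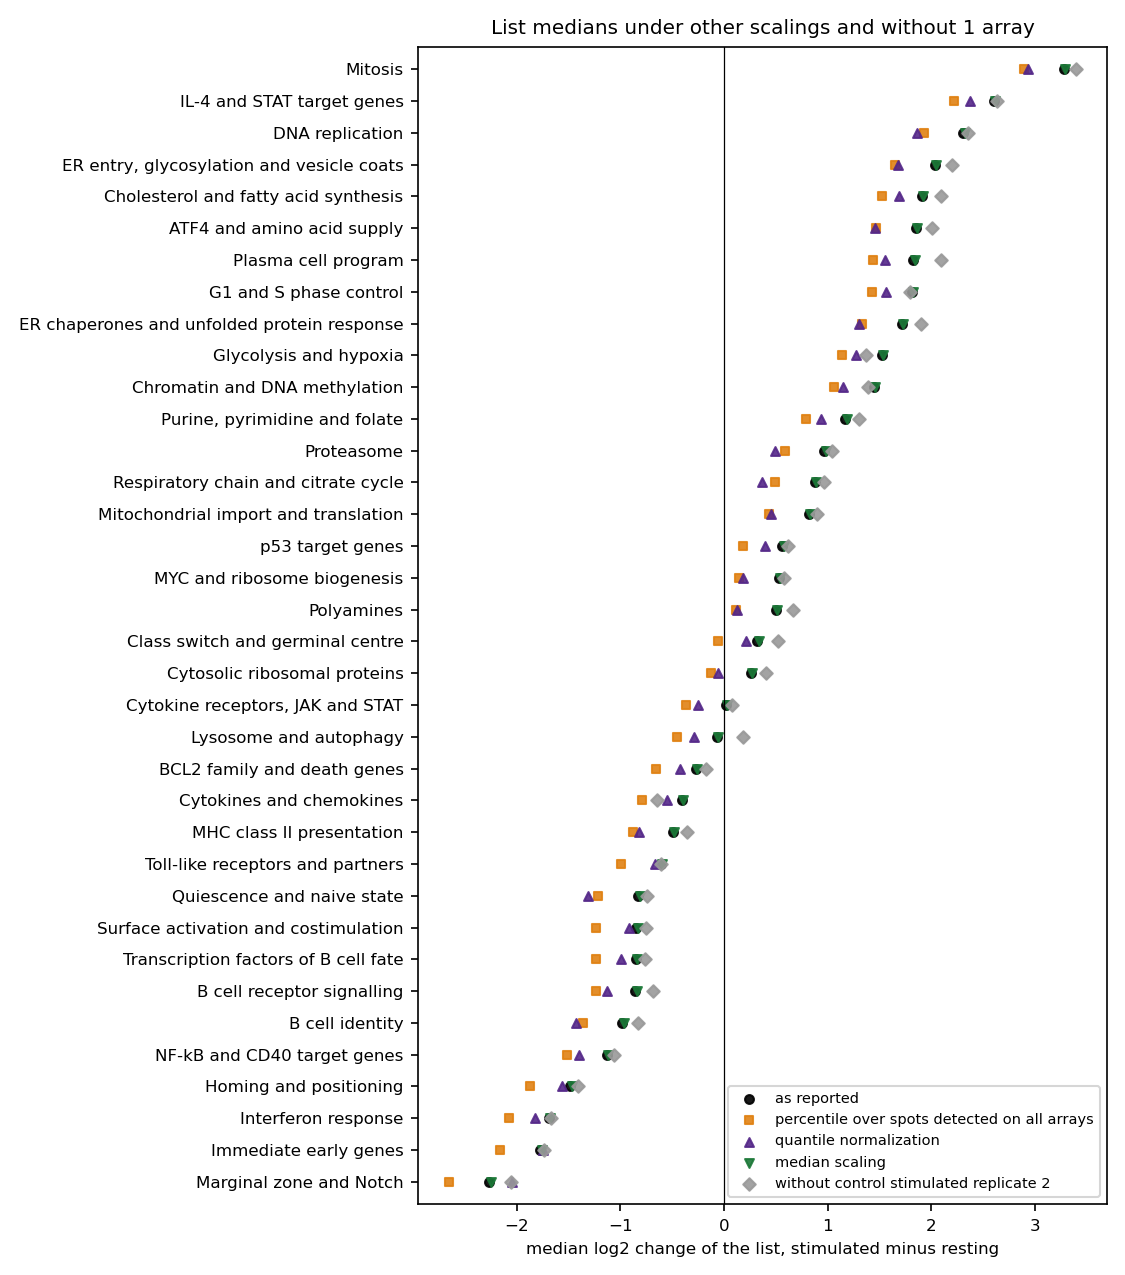
Median log2 change of each gene list (stimulated minus resting, horizontal) under the scaling used (black circles), 3 other scalings (coloured) and without stimulated replicate 2 (grey diamonds), the array with the fewest spots above background. Most medians keep their side of 0, while that of cytosolic ribosomal proteins is 0.26 as reported, -0.12 with the percentile over detected spots and -0.06 with quantile normalization; class switch, cytokine receptor and lysosome medians also cross 0.

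Survival and death genes split, with 6 of 20 higher, 6 lower and a median of -0.27. Bcl2l1, which encodes the survival protein BCL-XL, had levels of 4.94, 4.17 and 4.71 in stimulated cells, against 1.50, 1.70 and 1.02 in resting cells (change 3.20, SE 0.26). Bcl2l11, which encodes the killer BIM, was at 1.44, 1.57 and 1.56 in stimulated and -1.88, -1.52 and -1.34 in resting cells (change 3.1, SE 0.26). Transcripts for a survival protein and for a killer were thus both higher, while that of Bmf, a second killer of the same family, was lower (-3.18, SE 0.47). Genes of the p53 response were higher in 7 of 14 and lower in 1 (median 0.56, and 0.18 with the percentile over detected spots). Gtse1, a regulator of p53 in dividing cells, changed by 3.31 (SE 0.35), Phlda3, an inhibitor of AKT, by 2.94 (SE 0.44) and Sesn1, sestrin 1, by -1.95 (SE 0.32). Lysosome and autophagy genes were called in 7 of 31, 3 higher and 4 lower, with a median of -0.07 that was 0.18 without stimulated replicate 2. Npc2, a lysosomal cholesterol carrier, changed by 2.07 (SE 0.26), Gabarapl1, an autophagosome protein, by 0.97 (SE 0.20) and Ctss, the protease cathepsin S, by -1.45 (SE 0.18).

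Interferon response genes were lower in 18 of 27 tested and higher in 1, with a median of -1.69. Over the members detected on all 12 arrays it was -0.20, and 5 of the 18 lower members were not above background on any stimulated array. Oasl1, an antiviral gene of the oligoadenylate synthetase family, had levels of -1.50, -2.13 and -0.14 in stimulated cells, against 3.90, 3.82 and 3.84 in resting cells (change -5.11, SE 0.44, 34.5-fold, adjusted p = 2.22e-05). Oasl1 was above background on only 2 stimulated arrays, so the size of its change is uncertain. Oas2, of the same family, was at -3.13, -2.28 and -1.87 in stimulated and 2.14, 2.12 and 2.51 in resting cells (change -4.68, SE 0.62). Zbp1, a sensor of left-handed nucleic acids, was the higher member, at 4.38, 3.63 and 4.65 in stimulated and 1.68, 2.26 and 1.99 in resting cells (change 2.24, SE 0.29). Toll-like receptors and their partners were lower in 7 of 17 and higher in 1 (median -0.61, and -0.99 with the percentile over detected spots). Tlr1, which pairs with TLR2 for bacterial lipopeptides, changed by -2.59 (SE 0.22), and Irak3, an inhibitory kinase of that pathway, by -2.47 (SE 0.52).

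MHC class II presentation genes were lower in 4 of 13 and higher in 1, with a median of -0.49 (-0.88 with the percentile over detected spots), and with the replicate number as a block 7 were lower. H2-Oa, a chain of the modulator of peptide loading in B cells, had levels of 4.50, 4.18 and 5.02 in stimulated cells, against 6.29, 6.03 and 6.34 in resting cells (change -1.65, SE 0.24). Ifi30, a lysosomal thiol reductase, was the higher member (1.17, SE 0.22). Of 14 tested cytokines and chemokines, 3 were higher and 6 lower, with a median of -0.41 that was 0.11 without the filter on dim probes. Ltb, lymphotoxin beta, which B cells use to maintain follicles, was at 4.37, 4.62 and 4.85 in stimulated and 8.49, 8.40 and 8.40 in resting cells (change -3.82, SE 0.19, 14.1-fold). Ccl5, a chemokine, changed by -3.0 (SE 0.37).

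Markers of other cells moved between the groups, and in these bulk samples fewer cells of a type and less RNA per cell cannot be told apart. Summed on the linear scale over all members on the array, 18 macrophage and granulocyte markers came to 14.4 to 31.2 times the array's 75th percentile in stimulated and 66.0 to 102 times in resting cells, with 10 of 17 tested called lower and none higher. S100a8, a neutrophil calcium-binding protein, stood at -3.96, -2.30 and -3.82 in stimulated cells, where it was not above background, against 1.75, 3.55 and -0.84 in resting cells (at least 9.36-fold lower). S100a9, its partner, was at -4.10, -0.74 and -0.30 in stimulated and 3.55, 5.16 and 1.13 in resting cells. The S100a9 call ended without stimulated replicate 1 (-3.80, adjusted p = 0.0559) or resting replicate 2 (-4.05, adjusted p = 0.0576), and that of S100a8 without both arrays of replicate 1 (-4.42, adjusted p = 0.0711). The part of such cells in the decrease of Slpi was not tested.

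The 11 erythroid markers on the array summed to 97.8 to 141 in stimulated and 110 to 460 in resting cells, which overlap through resting replicate 3 (110), and 4 of 8 tested were lower. Hba-a1, an alpha globin gene, was at -2.44, -2.20 and -4.18 in stimulated and 5.62, 5.41 and 1.50 in resting cells, at least 60.3-fold lower, and resting replicate 3 stood far below the other two. Hba-a1 and Hba-a2 are near-identical copies, so their probes may read both. Hba-a2 was at -0.37, 0.33 and -2.03 in stimulated and 7.77, 7.67 and 3.73 in resting cells. The stimulated erythroid sums thus came almost wholly from other members, and the fall of this pair does not describe the whole list. The 7 platelet markers summed to 0.831 to 2.69 in stimulated and 6.45 to 13.9 in resting cells, with 4 of 6 tested lower and Ppbp at least 9.19-fold lower. The 8 dendritic cell markers gave 70.8, 59.9 and 234 in stimulated and 137, 99.8 and 309 in resting replicates 1, 2 and 3, with 4 of 8 lower. The ranges overlap through replicate 3, which lay on slide 2 and was the highest in both groups. Each stimulated sum was below the resting sum of the same replicate number. Among these markers Itgax, the integrin CD11c that some B cells also carry, was at least 9.52-fold lower. The 10 stromal and endothelial markers summed to 5.97 to 12.5 in stimulated and 7.91 to 10.9 in resting cells, with 3 of 5 tested lower, Vwf among them (-2.50, SE 0.26). Pdgfrb and Cdh5 were not above background on any control array.

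The summed T and NK cell markers were higher in stimulated cells, through 3 genes. The 15 T cell markers came to 59.1 to 71.8 in stimulated and 17.0 to 22.2 in resting cells, and of 13 tested 2 were higher and 1 lower, with a median of -0.20 that was 0.19 without stimulated replicate 2. Thy1, a surface glycoprotein of mouse T cells, was at 5.59, 5.30 and 4.99 in stimulated and -0.28, 0.62 and -1.57 in resting cells (change 5.70, SE 0.54, adjusted p = 3.58e-05). Cd3e, which defines T cells through the CD3 complex, was at 0.47, -0.42 and 1.73 in stimulated and 0.61, 0.84 and 0.93 in resting cells and was not called (-0.20; chosen after its values were seen). Thy1 and Lck, a T cell kinase that was the second higher member (0.91, SE 0.24), held 78.6% to 90.2% of the sum in stimulated and 44.8% to 50.3% in resting cells. The call of Lck ended without resting replicate 1 (0.84, adjusted p = 0.0642) or 2 (0.90, adjusted p = 0.0511). Without both genes the sums overlapped, at 6.17 to 12.6 in stimulated and 8.43 to 12.3 in resting cells. Cd8a was not above background on any stimulated array and at least 1.55-fold lower, a call that ended without resting replicate 2 (adjusted p = 0.0736), and Cd8b1 and Tcf7 were not above background on any control array.

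The 11 NK cell markers summed to 29.9 to 30.4 in stimulated and 6.04 to 9.76 in resting cells, with 1 of 6 tested higher and a median of 0.25 that was -0.13 with the percentile over detected spots. That 1 was Gzma, the protease granzyme A, at 4.62, 4.45 and 4.43 in stimulated and 1.38, 1.13 and -1.48 in resting cells (change 4.16, SE 0.68, adjusted p = 0.00103). Without Gzma the sums overlapped, at 5.69 to 8.33 in stimulated and 5.69 to 7.16 in resting cells. Gzmb stood at 2.76, 2.65 and 2.94 in stimulated and -4.18, -4.0 and -5.21 in resting cells. Klrk1, Klre1, Klrc1 and Il18rap, receptors of NK cells, were not above background on any control array. The part of T or NK cells in the granzyme values was not tested.

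Whether the response of these cells differs from that of cells lacking Sub1 was tested as the difference of the stimulation changes between the genotypes. By limma 33 of 22981 features (0.144%) passed, 21 with a more positive and 12 with a more negative response in control cells, while 2445 had an unadjusted p under 0.05. The count was unstable, at 0 with any 1 of several arrays left out and 335 with trend and robust settings. The knockout cells carry the same alleles with Mb1-Cre. Slc7a3 changed by 5.50 in control and 1.58 in knockout cells, a fitted difference of 3.93 (SE 0.50, adjusted p = 0.0282). It was not above background on any control resting array, so only the bound of at least 22.9-fold is measured for its change in control cells, and the difference has no measured size. For all other genes named here but Chac1, Hid1, Ifng and Jchain, the difference did not pass, so their changes are not shown to be particular to control cells.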

How the data were processed

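Amplified, Cy3-labelled RNA of splenic B cells was read on Agilent mouse arrays, per the labels' protocols. The deposited values are background-subtracted processed signal intensities on a linear scale, from Feature Extraction version 10.7.3.1 per the file headers, whereas the submitters' processing notes name version 9.1. Each array held 59305 non-control spots, none saturated.

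From these, the log2 intensity was taken after division by the 75th percentile of the non-control spots on that array. Outlier spots were left out and spots of a probe averaged. Probes well above background (at least a share of 0.5 of their spots flagged so) on all 3 arrays of any 1 of the 4 groups were kept. Accessions named 26413 of 55681 probes through RefSeq of GRCm38.p6. The brightest probe stood for a gene, giving 12295 named genes and 10686 unnamed probes. Of 2806 genes with several probes, 15 were called with another probe called the other way.

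Changes were fitted with limma 3.58.1 (R 4.3.3) on all 12 arrays with 4 group means and tested with eBayes (8 residual and 2.55 prior degrees of freedom). Every adjusted p is limma's, Benjamini-Hochberg adjusted over all features, with a threshold of 0.05. "At least N-fold" sets the brighter group's mean against the lowest level well above background on the dimmer group's arrays, or the probe's own level where that is higher. The number of arrays limits the precision.

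Sample titles gave both group and replicate number. Deviations of same-numbered stimulated and resting arrays from their group means correlated at 0.42, 0.43 and 0.51, so the numbers were taken to pair the samples. The reported fit did not use this pairing and called 6397 features. Replicate number as a block was an alternative, with 7519 called. Replicates 1 and 2 of both groups lay on slide 1 and replicate 3 on slide 2. Gene lists and the rule for naming genes were chosen with earlier results of these data known. The rule takes the 12 largest called changes in each direction with no overlap between groups, up to 2 called members per list and direction, and 20 key genes. Some genes that the rule takes are not reported here. The fit was also run on simulated data with independent noise and no slide or pairing effect, so that check does not cover such effects. Lists are described by counts and medians, with no test of their own. Alternatives covered pairing, slide, scaling, background correction, filters, probe choice, variance model and arrays left out.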

Additional observations from a re-analysis of the deposited data

Results flagged for a closer look

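The response to stimulation differed between control and knockout cells for 5 of the genes named, by a test of the difference itself. Hid1 changed by 6.06 in control and 1.62 in knockout cells, a difference of 4.44 (limma adjusted p = 0.0247). Slc7a3 changed by 5.50 in control and 1.58 in knockout cells, a fitted difference of 3.93 (adjusted p = 0.0282). It was not above background on any control resting array, so its control change is measured only as at least 22.9-fold and the difference has no measured size. Jchain changed by 1.18 in control and -2.71 in knockout cells, a difference of 3.89 (adjusted p = 0.0497). Chac1 changed by 4.72 in control and 1.80 in knockout cells, a difference of 2.91 (adjusted p = 0.0427). Ifng, the cytokine interferon gamma, changed by 1.37 in control and 5.38 in knockout cells, a fitted difference of -4.01 (adjusted p = 0.0333). In control cells it was above background on only 2 stimulated and 2 resting arrays, so the size of its change there is uncertain. Its own call in control cells ended without stimulated replicate 1 (0.88, adjusted p = 0.0521), resting replicate 1 (1.34, adjusted p = 0.0659) or resting replicate 3 (1.30, adjusted p = 0.0701). No difference between the genotypes passed in the fits that left out any 1 of control resting replicates 1, 2 and 3, knockout resting replicates 1 and 2 or knockout stimulated replicates 1 and 2.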

How the results depend on the processing

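Of 129 called named genes, 101 kept their call in each of the 32 other settings that tested them, and 35 of 44 list medians kept their sign. A gene with no probe detected on all 12 arrays was not in the fit on such probes. Leaving out 1 array ended 9 calls (Atg7, Ccl4, Cd8a, Cdkn1b, Ebi3, Ifng, Lck, S100a9 and Tirap). The called features numbered 3346 (1790 higher, 1556 lower) with median scaling, 3883 (2249 and 1634) of 49286 without a filter and 3624 (1962 and 1662) on slide 1 alone. Lower calls numbered 6035 with the percentile over detected spots and 1669 among probes detected on all 12 arrays. Leaving out 1 array or both control arrays of a replicate gave 3894 (without replicate 1) to 6287 called features, 2049 to 3595 higher and 1845 to 2959 lower. With the replicate block 7519 features were called, 6351 of them shared, and Jchain was the only named gene whose call changed in that fit.

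Features whose response differed between genotypes numbered 81 with slide as a block, 0 on slide 1 alone, 317 with the percentile over detected spots, 10 with median scaling, 81 with quantile normalization and 123 with normexp. They numbered 0 without a filter, 266 on probes detected on all arrays, 132 with a filter on control groups, 335 with trend and robust settings, 111 with array weights and 0 to 130 with arrays left out. Where limma gave 0, between 1876 and 2868 features had an unadjusted p under 0.05.

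Signs turned for these values. The cytokine receptor median was -0.080 on slide 1, -0.36 with the detected percentile, -0.25 with quantile normalization and -0.074 with normexp, and -0.15 to 0.078 with arrays left out. The NK median was -0.036 on slide 1, -0.13 with the detected percentile and -0.053 to 0.59 with arrays left out. Class switch genes gave -0.062 and ribosomal proteins -0.12 with the detected percentile, and ribosomal proteins -0.060 with quantile normalization and -0.0034 to 0.41 with arrays left out. Cytokines gave 0.11 without a filter. On probes detected on all arrays, surface activation gave 0.068, T cell markers 0.91 and stromal markers 0.22. Lysosome genes gave 0.031 with array weights and -0.17 to 0.18, and T cell markers -0.70 to 0.19, with arrays left out. Myc gave -0.18 with the detected percentile and -0.10 to 0.47 with arrays left out. Cd86 gave -0.32, -0.078 and -0.023 with the detected percentile, quantile normalization and normexp, -0.12 on slide 2 and -0.062 to 0.25 with arrays left out. The detected percentile only subtracts another constant from each array, so the sign turns it gives are a shift of the whole scale. Relative to the median of all features, the class switch median was 0.28 and the cytokine receptor median -0.02 in both percentile scalings. The causes of the other turns were not tested. Probes near background carry the least certain changes, since 67 higher calls had no resting and 197 lower calls no stimulated array above background.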

Other observations

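Among the unnamed probes, the largest increase was at A_51_P461067, with levels of 7.94, 7.60 and 9.01 in stimulated cells, against -0.36, 1.29 and 1.66 in resting cells (change 7.32, SE 0.61, limma adjusted p = 2.06e-05). The largest decrease was at A_55_P1972582, with levels of -2.85, -2.0 and -1.41 in stimulated cells, against 3.14, 2.94 and 3.02 in resting cells (change -5.12, SE 0.34, adjusted p = 7.64e-06). The name table used here gives neither probe a gene.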
